A study of Mus musculus with 6 samples.

Results

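A list of 31 interferon-stimulated genes was followed by gene symbol through 6 RNA-seq libraries, in 3 groups, of a line of mouse spermatogonial stem cells. Of the 31 genes, 30 were in the count table of 31384 genes, and all 30 passed the filter on low counts. Mx2 was not analysed here. The LOVA group (2 libraries) had 5 uM lovastatin, a statin that blocks sterol synthesis, in place of the growth factor GDNF. The NTC group (2 libraries) had neither lovastatin nor GDNF, and the PTC group (2 libraries) had 10 ng/mL GDNF, on which these stem cells depend for self-renewal. All groups had EGF, LIF and FGF2 in the medium, grew on mouse embryonic fibroblasts stopped with mitomycin C, and were collected after 18 days. The cells are a single line and the feeders' RNA is part of each library. Nothing in the labels tells separate cultures from repeats of a single one, so each p measures the spread between these libraries, which may be technical.

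Interferons signal through paired receptors to the kinases Jak1, Jak2 and Tyk2, which phosphorylate Stat proteins. Type I interferon brings Stat2 and Irf9 into a complex that binds the interferon-stimulated response element (ISRE), whereas interferon gamma acts through the gamma-activated site (GAS). The genes so switched on block virus entry and translation, sense viral RNA, tag proteins with Isg15 and prepare peptides for display to T cells. Stem cells of several tissues are known to respond weakly to interferon and to express some of these genes without it.

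Promoter windows from RefSeq (GRCm38.p6, from 250 bases before to 50 from the start of the gene) were found for 25 of the 31 genes. The ISRE core searched was GAAANNGAAA, or TTTCNNTTTC on the other strand, and the GAS core was TTCNNNGAA, which reads the same on both strands; adjoining matches can share bases. An ISRE core lay in 13 of the 25 windows (52.0%), against 1079 of all 27025 genes with a window (3.99%). A GAS core lay in 8 of the 25 (32.0%), against 9.55% of all genes. The 8 genes with an ISRE core and the highest mean CPM over the libraries are shown because some of them were higher and others lower without GDNF, as described further on. Each sequence is the gene's own strand, 5′ to 3′, with 1 core in capitals:
Ifitm3, chr7:141010715-141010764, minus strand: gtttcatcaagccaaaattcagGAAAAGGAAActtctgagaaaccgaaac
Bst2, chr8:71537571-71537624, minus strand: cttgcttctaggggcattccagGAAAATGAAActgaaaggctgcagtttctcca
Gbp2, chr3:142620582-142620635, plus strand: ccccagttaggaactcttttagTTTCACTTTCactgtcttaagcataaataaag
Stat2, chr10:128270254-128270307, plus strand: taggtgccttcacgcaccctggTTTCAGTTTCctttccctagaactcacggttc
Eif2ak2, chr17:78882543-78882576, minus strand: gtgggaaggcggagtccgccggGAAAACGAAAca
Gbp3, chr3:142559977-142560030, plus strand: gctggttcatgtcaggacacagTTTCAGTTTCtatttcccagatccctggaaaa
Ddx58, chr4:40239796-40239845, minus strand: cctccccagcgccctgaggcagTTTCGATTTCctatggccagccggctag
Ifit3, chr19:34583351-34583404, plus strand: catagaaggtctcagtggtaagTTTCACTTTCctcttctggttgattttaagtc
Cores of Gbp2, Stat2, Gbp3, Ddx58 and Ifit3 stand in the reverse reading, and those of Ifitm3, Bst2 and Eif2ak2 in the forward one. Counting from 0 at the RefSeq start of the gene, the core in capitals began at 2 in Ifitm3, at 18 in Eif2ak2 and at 2 in Ddx58, at or after the start. It began at -130 in Bst2, -59 in Gbp2, -222 in Stat2, -45 in Gbp3 and -156 in Ifit3. Ifitm3, Bst2, Gbp3 and Ifit3 held 2 ISRE cores each, and only the first of them is in capitals. The gene coordinates given further on come from GENCODE, whose start can differ from the RefSeq one, as in Gbp2 and Gbp3. Irf1 had no exact ISRE core in its window but a GAS core beginning at -90, shown in capitals:
Irf1, chr11:53769902-53769954, plus strand: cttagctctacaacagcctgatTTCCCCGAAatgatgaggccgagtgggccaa
A match is a description of letters and not of binding.

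Library totals ran from 12454671 to 22668087 counts, so a floor of 3 counts stood for 0.128 to 0.258 CPM (the count set against the TMM-scaled library total). The lowest count of any of the 30 genes in a library was 8. The libraries of a group are called A and B after their columns. Feeder fibroblast markers (16 genes) took 1.26% and 2.37% of counts in LOVA (A first, then B), 1.39% and 2.27% in NTC, and 0.101% and 0.487% in PTC. Pan-germ-cell genes (18) took 0.399% and 0.212% in LOVA, 0.347% and 0.222% in NTC, and 0.600% and 0.606% in PTC. Macrophage markers (14) took 0.0456% and 0.0548% in LOVA, 0.210% and 0.263% in NTC, and 0.0315% and 0.0270% in PTC. None of these markers was at 0 in all libraries, while Siglech of plasmacytoid dendritic cells and Klrb1c of natural killer cells were. Other markers listed for these cells were counted. Tcf4 had mean CPM of 106 in LOVA, 73.7 in NTC and 11.2 in PTC, and Il3ra 5.45, 5.68 and 2.17. Spib was near the floor. Cd3e had 9 and 3 counts in PTC and Cd3g 11 and 6, so the presence of these cells was not settled. All 12 markers of undifferentiated spermatogonia were measured, together at 0.0937% and 0.0583% of counts in LOVA, 0.0680% and 0.0583% in NTC, and 0.172% and 0.155% in PTC. In such bulk samples, fewer cells of a type and less RNA per cell cannot be told apart.

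NTC against PTC asks what leaving out GDNF did to these genes. The list split. The IFIT family, Ifitm3, Ifi44, Irf7, Ddx58, Isg15 and Eif2ak2 were higher in NTC, with log2 fold changes of 1.79 to 3.71, while Gbp2, Gbp3, Oasl2, Parp14 and Irf1 were lower, by 0.92 to 1.62. By edgeR's quasi-likelihood test at an adjusted p under 0.05, 13 of 30 genes were higher (43.3%), against 21.5% of all 16121 genes tested. A further 5 of 30 were lower (16.7%), near the 12.9% of all genes, and 12 were not called. Calls are from the fit without a block by column letter. With that block 16 were higher and 7 lower, against 4421 and 3632 of all 16121 genes. It added Stat2, Usp18, Ifih1, Oasl1 and Rsad2. The median log2 fold change was 0.93 over the 30 genes and -0.02 over all genes. Both NTC libraries lay above both PTC libraries in 18 of the 30 genes (60%), against 39% of all genes, and below them in 7 (23.3%), against 38.5% of all genes.

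**Figure D1:**
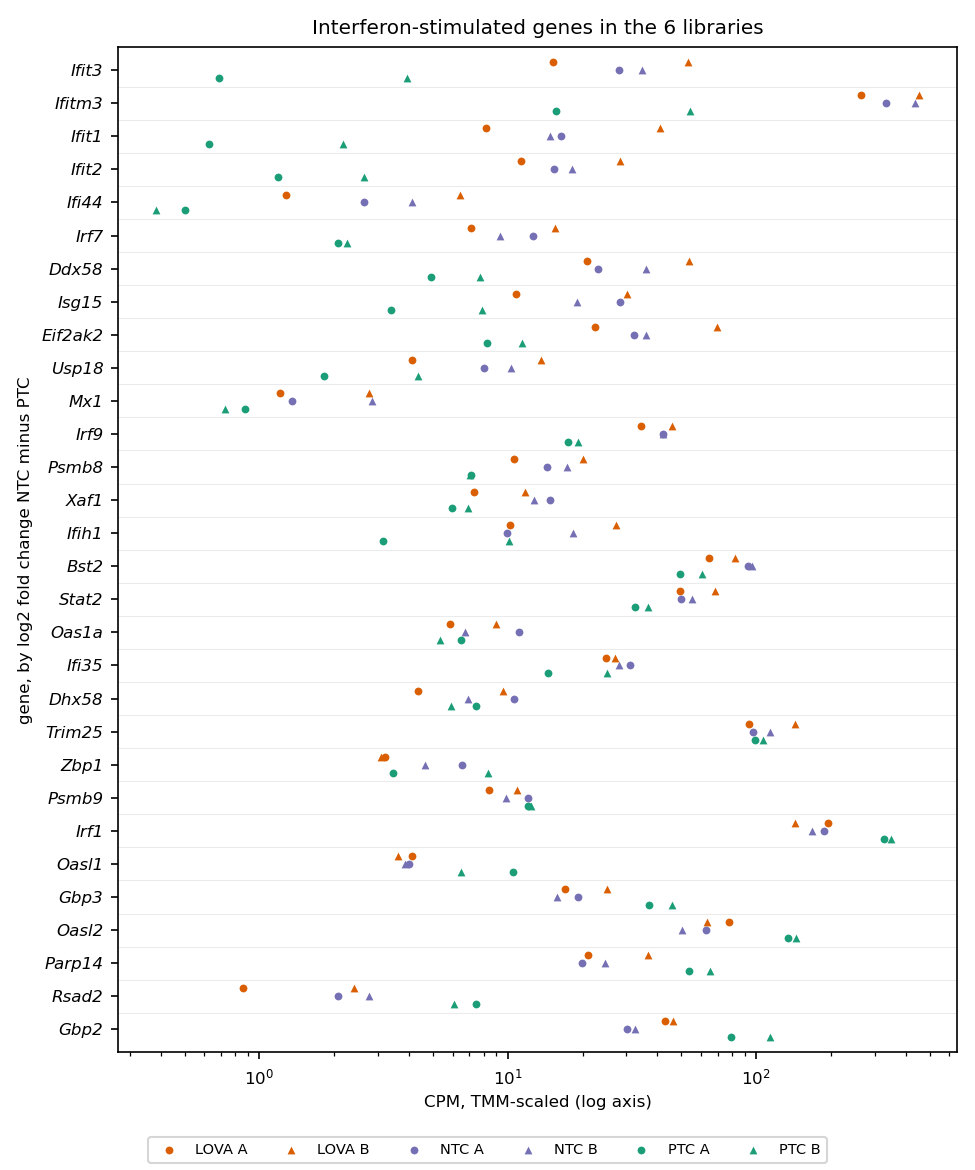
Level of each of the 30 genes (CPM, log axis) in LOVA, NTC and PTC libraries A (circles) and B (triangles), in the order of the log2 fold change NTC minus PTC. Ifitm3 stands at 264 to 452 CPM in LOVA and NTC and at 15.7 and 54.1 CPM in PTC, while Gbp2, at the bottom, stands highest in PTC.

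The 3 IFIT genes encode cytoplasmic proteins that bind viral RNA and hold back its translation. They lie near each other on chromosome 19 (Ifit2 from 34550694 to 34576419, Ifit3 from 34583531 to 34588731 and Ifit1 from 34640871 to 34650009, mm10, plus strand). Ifit3 had 15.2 and 53.3 CPM in LOVA, 28.0 and 34.8 in NTC, and 0.690 and 3.92 in PTC. Its log2 fold change was 3.71 in NTC (SE 0.87, adjusted p = 0.0243) and 3.83 in LOVA (SE 0.88, adjusted p = 0.0265), both against PTC. LOVA and NTC overlapped, and all 4 of their libraries lay above both PTC libraries. Ifit1 had 8.19 and 40.9 CPM in LOVA, 16.3 and 14.8 in NTC, and 0.627 and 2.17 in PTC, and was 3.42 higher in NTC (SE 0.88, adjusted p = 0.0297) on the log2 scale. Ifit2 had 11.3 and 28.2 CPM in LOVA, 15.4 and 18.2 in NTC, and 1.19 and 2.64 in PTC, and was 3.10 higher (SE 0.56, adjusted p = 0.0128). Ifit3 has a near-identical copy, Ifit3b, which moved alike at 3.75, so reads may be split between the pair in a way the table does not show.

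Among other antiviral effectors, Ifitm3, a membrane protein that blocks virus fusion, was the most abundant of the 30 genes per exon length in LOVA (528 RPKM, the CPM per kilobase of exon) and in NTC (568 RPKM). In PTC it stood at 51.4 RPKM, below Irf1 at 84.9 and Bst2 at 61.0. It had 264 and 452 CPM in LOVA, 333 and 437 in NTC, and 15.7 and 54.1 in PTC, a log2 fold change of 3.46 in NTC (SE 0.61, adjusted p = 0.0136). The LOVA and NTC libraries overlapped here too, far above PTC. Eif2ak2, the kinase PKR that stops translation upon double-stranded RNA, had 22.4 and 69.6 CPM in LOVA, 32.3 and 36.1 in NTC, and 8.28 and 11.4 in PTC (1.79 in NTC, SE 0.51, adjusted p = 0.0356). Ifi44 was rare, at 1.28 and 6.45 CPM in LOVA, 2.63 and 4.13 in NTC, and 0.502 and 0.384 in PTC, and was 2.93 higher in NTC (SE 0.83, adjusted p = 0.0358). Xaf1 and Bst2, the tetherin that holds budding virus, were also called higher, with 93.1 and 96.4 CPM of Bst2 in NTC and 49.5 and 60.7 in PTC. Mx1, a dynamin-like GTPase, had 1.35 and 2.84 CPM in NTC and 0.878 and 0.725 in PTC and was not called.

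Isg15, the ubiquitin-like tag, had 10.8 and 30.1 CPM in LOVA, 28.4 and 19.0 in NTC, and 3.39 and 7.88 in PTC. The groups did not overlap with PTC, and the log2 fold change was 2.06 in NTC (SE 0.59, adjusted p = 0.0367) and 1.84 in LOVA (SE 0.59, adjusted p = 0.0529, not called). Usp18, the protease that removes the tag and also restrains the type I receptor, had 8.05 and 10.3 CPM in NTC and 1.82 and 4.35 in PTC, and was not called. Ddx58, the RNA sensor RIG-I, had 20.9 and 53.5 CPM in LOVA, 23.2 and 36.1 in NTC, and 4.89 and 7.71 in PTC (2.23 in NTC, SE 0.50, adjusted p = 0.0199). Its relatives Ifih1 and Dhx58 and the RIG-I ligase Trim25 were not called, and in each the NTC and PTC libraries overlapped.

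The transcription factors of the list went different ways. Irf7, the factor that amplifies type I interferon production, had 7.12 and 15.5 CPM in LOVA, 12.7 and 9.29 in NTC, and 2.07 and 2.26 in PTC (2.33 in NTC, SE 0.45, adjusted p = 0.0142). Irf9, the DNA-binding part of the type I complex, had 34.5 and 45.7 CPM in LOVA, 42.1 and 42.2 in NTC, and 17.5 and 19.3 in PTC (1.20, SE 0.21, adjusted p = 0.0127). Stat2, its partner, had 49.4 and 68.2 CPM in LOVA, 49.6 and 55.0 in NTC, and 32.5 and 36.6 in PTC. It was not called in NTC (0.60, SE 0.22, adjusted p = 0.0696) and was called higher in LOVA (0.76, SE 0.22, adjusted p = 0.0388). Irf1, a factor induced through GAS sites, had 194 and 143 CPM in LOVA, 188 and 168 in NTC, and 326 and 349 in PTC, and was lower in NTC (-0.92, SE 0.19, adjusted p = 0.0171). In Irf7, Irf9, Stat2 and Irf1, no library of LOVA or NTC overlapped with PTC. Exons of Irf7 overlap Phrf1 and those of Irf1 overlap Gm17334 on the opposite strand, and Irf9 shares exon sequence with Rnf31 on its own strand. The strand setting of the counting is not given in the sources used here, so reads of these overlaps cannot be told apart. Of the 30 genes 12 had such an overlap. Of the 13 genes called higher in NTC against PTC, where 21.5% of all genes were, 9 had none. Psmb8 and Eif2ak2, also called higher, had an overlap on the opposite strand. Among the genes called lower, besides Irf1, Gbp2 overlaps Mir6381 on the opposite strand and Parp14 overlaps Gm49730 on its own. Oasl2 and Gbp3 had no overlap.

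Among the genes lower in NTC, Gbp2 and Gbp3 encode guanylate-binding GTPases that attack the vacuoles of intracellular pathogens. They lie near each other on chromosome 3 (Gbp3 from 142560026 to 142573209 and Gbp2 from 142620602 to 142638008, mm10, plus strand). Gbp2 had 43.2 and 46.4 CPM in LOVA, 30.3 and 32.6 in NTC, and 79.0 and 114 in PTC (-1.62 in NTC, SE 0.22, adjusted p = 0.0092). Gbp3 had 17.0 and 25.1 CPM in LOVA, 19.12 and 15.7 in NTC, and 36.9 and 45.8 in PTC (-1.25, SE 0.27, adjusted p = 0.0179). Each PTC library lay above every other library in both genes. Oasl2, of the oligoadenylate synthetase family, had 77.6 and 63.2 CPM in LOVA, 62.9 and 50.1 in NTC, and 134 and 145 in PTC (-1.30, SE 0.20, adjusted p = 0.0100). Parp14, an ADP-ribosyltransferase, had 21.1 and 36.7 CPM in LOVA, 19.9 and 24.7 in NTC, and 53.5 and 64.9 in PTC (-1.41, SE 0.30, adjusted p = 0.0177). Oasl1 and Rsad2 (viperin, which makes a chain-ending nucleotide) had all NTC libraries below PTC but were not called, at 3.98 and 3.87 CPM of Oasl1 in NTC and 10.5 and 6.48 in PTC. Gbp2 and Gbp3, and likewise Oasl1 and Oasl2, are close paralogs whose reads may be shared.

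The immunoproteasome subunits Psmb8 and Psmb9, which cut proteins into peptides for class I display, lie near each other on chromosome 17. Psmb8 had 10.6 and 20.04 CPM in LOVA, 14.3 and 17.3 in NTC, and 7.09 and 7.03 in PTC (1.16 in NTC, SE 0.35, adjusted p = 0.0427). Psmb9 had 12.1 and 9.80 CPM in NTC and 12.04 and 12.4 in PTC and was not called. Exons of Psmb9 overlap Tap1 on the opposite strand. The difference between the pair was not tested.

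The ISRE core lay in genes called higher and in genes called lower. It was in 7 of 13 genes called higher in NTC, in 2 of the 4 genes called lower that had a window, which were Gbp2 and Gbp3, and in 4 of 8 genes not called. With 1 mismatch allowed it lay in 23 of the 25 windows (92.0%), against 38.9% of all genes.

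**Figure D2:**
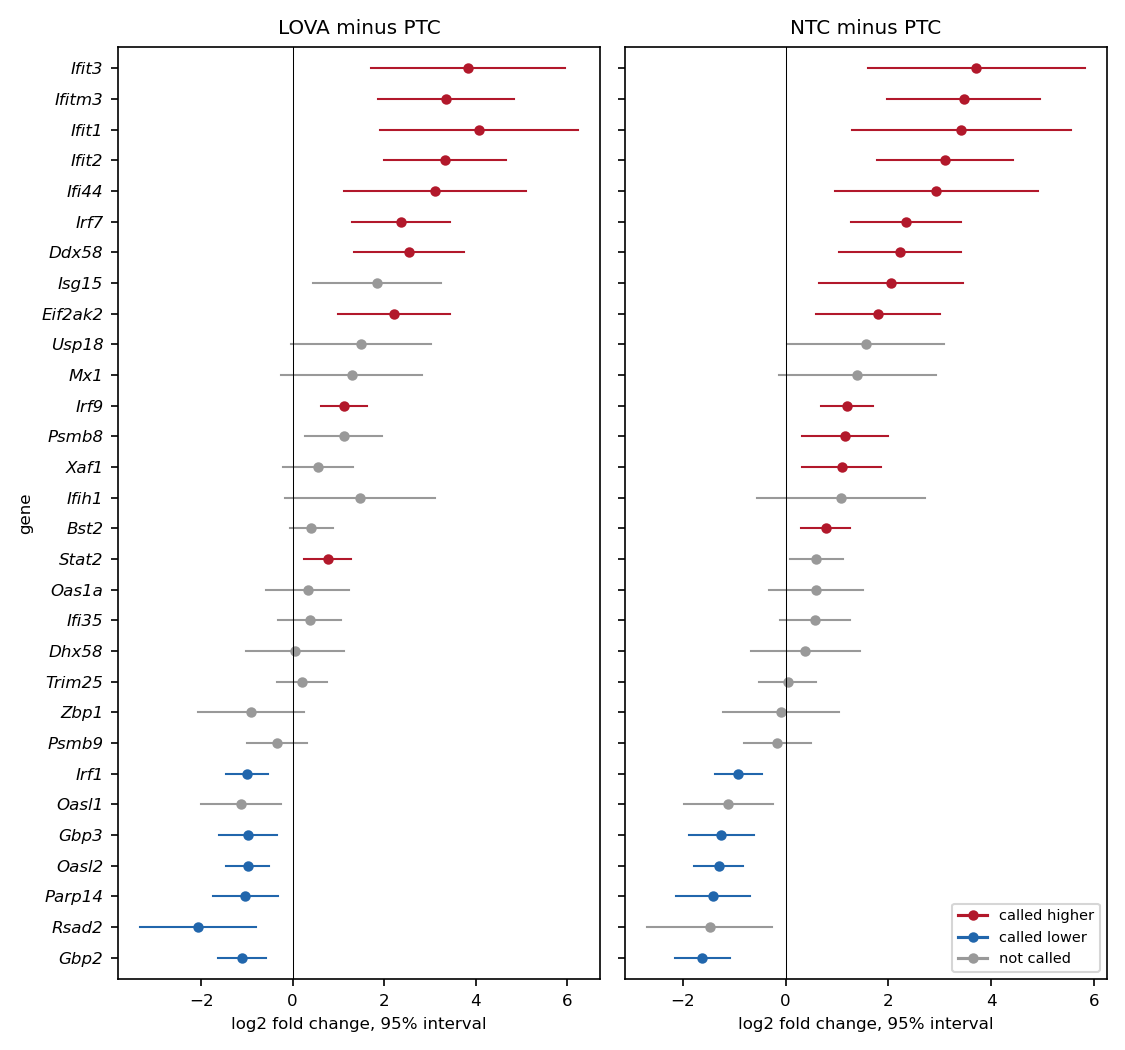
Log2 fold change of each of the 30 genes in LOVA (left) and NTC (right) against PTC, with 95% intervals from edgeR; red genes were called higher, blue lower and grey not called. The same PTC libraries stand in both panels, where Ifit3 lies at 3.83 and 3.71 and Gbp2 at -1.11 and -1.62.

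LOVA against PTC sets lovastatin in place of GDNF beside GDNF. Of the 30 genes, 10 were called higher (33.3%), against 19.8% of all genes tested, and 6 were called lower (20%), against 10.8% of all genes. The median log2 fold change was 0.66 over the 30 genes and 0.00 over all genes, with a range of -2.07 to 4.07. Higher in LOVA were Ifit1 (4.07, SE 0.89, adjusted p = 0.0244), Ifit3, Ifitm3 (3.35), Ifit2 (3.33), Ifi44 (3.11), Ddx58 (2.55), Irf7 (2.37), Eif2ak2 (2.22), Irf9 (1.12) and Stat2. Lower were Rsad2 (-2.07, SE 0.54, adjusted p = 0.0312), Gbp2 (-1.11), Parp14 (-1.04), Irf1 (-1.003), Oasl2 (-0.98) and Gbp3 (-0.98). Rsad2 had 0.855 and 2.41 CPM in LOVA, 2.07 and 2.77 in NTC, and 7.46 and 6.09 in PTC. Psmb8 (1.11, SE 0.35, adjusted p = 0.0518) was not called in LOVA. Both Psmb8 and Isg15 were called there with a block by column letter. Since LOVA and NTC are both set against the same 2 PTC libraries, the likeness of these values is not independent evidence.

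Feeder and germ cell shares also differed from PTC in both comparisons. The feeder share was higher in each LOVA and NTC library than in each PTC library, and the pan-germ-cell share lower. All 16 feeder markers had positive fold changes in NTC against PTC (median log2 2.87). Of these 16, 10 were called higher, against 21.5% of all genes. The 18 pan-germ-cell genes had a median of -1.04, and 16 of them were negative. Of these 18, 7 were called lower, against 12.9% of all genes. Within PTC, library B had 4.82 times the feeder share of library A, 3.45 times the Ifitm3 level and 5.68 times the Ifit3 level. These 2 genes were among the most different. Over the 13 genes called higher in NTC the median ratio of B to A in PTC was 1.38, with Ifi44 at 0.765 and Psmb8 at 0.992. In LOVA this median was 2.51 beside a feeder share ratio of 1.88, and in NTC 1.12 beside 1.63. Library B also had the larger feeder share in LOVA, where all 13 genes called higher in NTC were above library A, against 51.0% of all genes. In PTC 11 of these 13 genes were higher in B, against 57.2% of all genes, and in NTC 9 of 13, against 49.8%. Of the 12 genes not called, 10 were higher in B in LOVA (83.3%), 7 in PTC and 6 in NTC. All 5 genes called lower in NTC were also higher in B within PTC, as were 3 of the 5 in LOVA and 2 in NTC. The part of the feeder and germ cell shares in the calls against PTC was not tested.

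**Figure D3:**
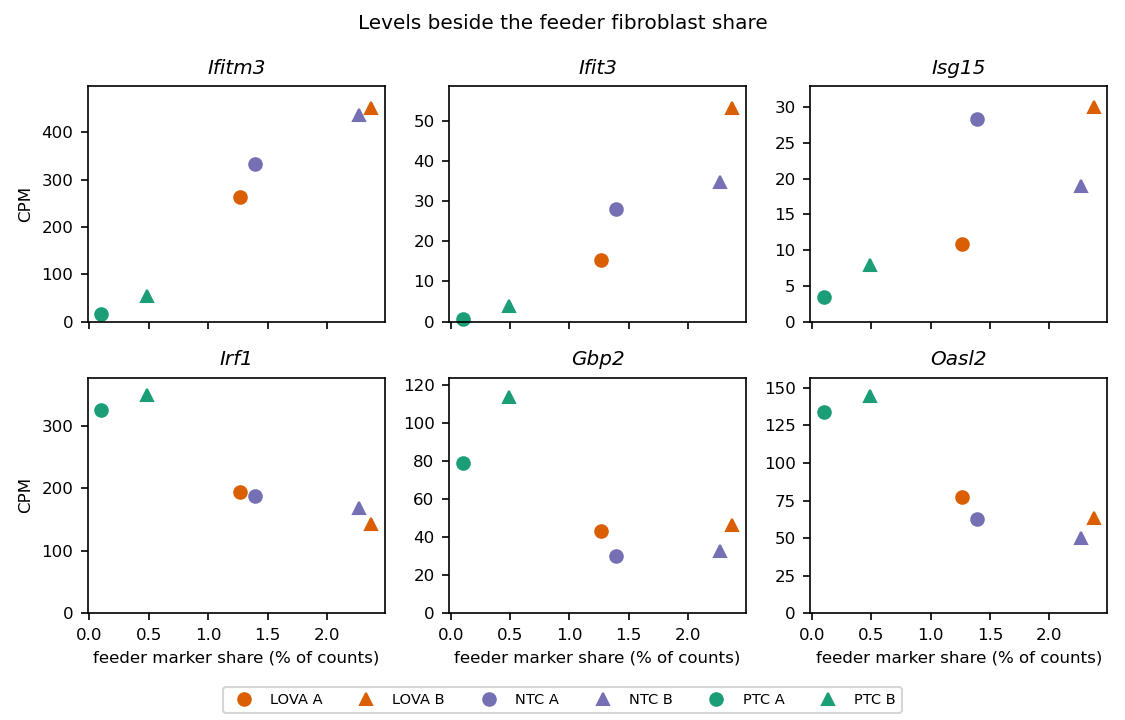
Level (CPM) of Ifitm3, Ifit3, Isg15, Irf1, Gbp2 and Oasl2 in each library against the share of counts from the 16 feeder fibroblast markers (%), with LOVA orange, NTC violet and PTC green, A as circles and B as triangles. Ifitm3 is highest in LOVA B, where the share is 2.37%, while Irf1, Gbp2 and Oasl2 are highest in PTC B, where it is 0.487%.

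Scaling to pan-germ-cell genes moved the median of all genes to 1.00 in NTC and 0.99 in LOVA against PTC, and left no gene of the list called lower. Over all 16121 genes, 38 were then called lower in NTC and 30 in LOVA. Of the list 15 were called higher in NTC, against 4818 of all genes, and 12 in LOVA, against 4383 of all genes. Irf1 turned to 0.10 in NTC, Gbp3 to 0.09 and Parp14 to 0.06 in LOVA, none of them called. In NTC, Gbp2 stayed negative at -0.57, Parp14 at -0.35, Oasl2 at -0.30 and Gbp3 at -0.24, also uncalled. The pan-germ-cell genes were themselves lower than in PTC, with a median log2 fold change of -1.04 in NTC and -1.09 in LOVA. Scaling to them raises the values of all genes, so it cannot decide whether the lower calls hold. Those calls are relative to the other genes of the library. Single libraries decided many calls, in the list as over the whole table. In NTC against PTC, 0 genes of the list were called higher and 0 lower without NTC B, where the whole table had 1 gene higher and 0 lower of 16736 tested. The list had 5 higher and 3 lower without NTC A (2251 and 535 over all genes), 2 and 3 without PTC A (1210 and 201), and 8 and 2 without PTC B (2294 and 473). In LOVA against PTC, the list had 1 higher and 3 lower without LOVA B (628 and 148 over all genes), 12 and 4 without LOVA A (3580 and 3174) and 2 and 1 without PTC A (701 and 57). It had 8 and 0 without PTC B (2069 and 259), and 5 and 3 without NTC B (2140 and 809), which enters through the shared estimate of the spread. Ifit2 in LOVA against PTC was called in each of the 13 other fits run.

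LOVA against NTC asks what lovastatin did in medium without GDNF. None of the 30 genes was called by edgeR, as none (0%) of all 16121 genes was, and no gene of the list reached an unadjusted p under 0.05, against 2.13% of all genes on the lower side and 1.35% on the higher. DESeq2 and limma-voom called 0 of the 30 as well, while DESeq2 called 25 genes higher and 95 lower over the whole table. The median log2 fold change was -0.03, with a range of -0.82 to 0.65, 14 positive and 16 negative. Gbp2 had the lowest p, with 43.2 and 46.4 CPM in LOVA and 30.3 and 32.6 in NTC (0.51, SE 0.22, 95% interval -0.01 to 1.04, adjusted p = 1). Both LOVA libraries lay above both NTC libraries for Gbp2 and Oasl2, 2 of 30 genes (6.67%), against 12.7% of all genes. They lay below for Bst2, Xaf1, Ifi35 and Zbp1, 4 of 30 (13.3%), against 13% of all genes.

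A miss of the threshold does not show that the groups were alike. The 95% interval of the log2 fold change lay within a 2-fold change either way for 11 of the 30 genes, among them Irf1 (-0.54 to 0.37), Irf9 (-0.58 to 0.43), Stat2 (-0.34 to 0.68) and Psmb8 (-0.87 to 0.77). It was wider for Isg15 (-1.55 to 1.12) and Irf7 (-0.95 to 1.03). LOVA A and B differed widely in several of these genes, such as Ifit1 at 8.19 and 40.9 CPM, and the median turned to 0.36 without LOVA A and to -0.56 without LOVA B. Beside these genes the macrophage share was 0.0456% and 0.0548% in LOVA and 0.210% and 0.263% in NTC. Each of the 14 macrophage markers was lower in LOVA at an unadjusted p under 0.05, with a median log2 fold change of -2.29, though none was called. The 16 feeder markers had a median of -0.01 and the 18 pan-germ-cell genes one of 0.00.

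**Figure D4:**
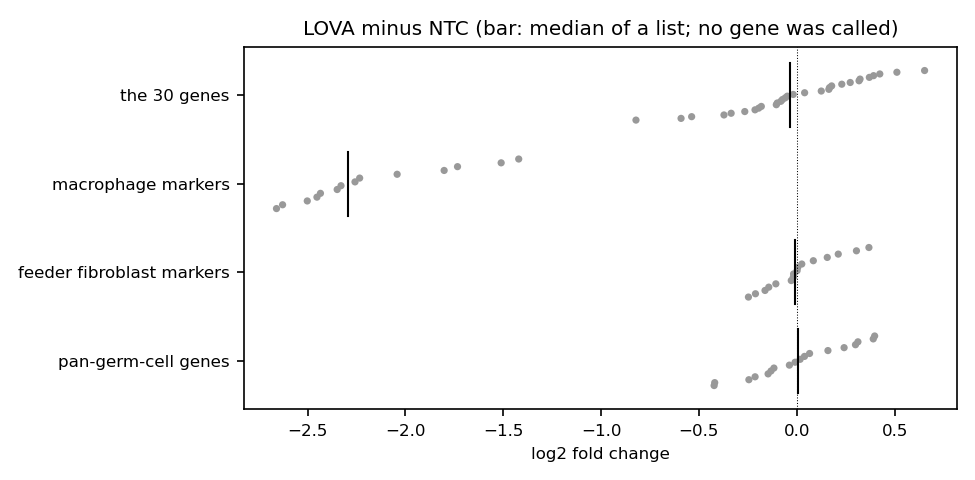
Log2 fold change LOVA minus NTC of the 30 genes, 14 macrophage markers, 16 feeder fibroblast markers and 18 pan-germ-cell genes; each point is a gene and each bar the median of its list. The 30 genes run from -0.82 to 0.65 about a median of -0.03, and the macrophage markers lie apart at a median of -2.29.

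The rest of the pathway was followed through lists by role. Of 21 interferon ligand genes, 19 had no count in any library, Ifnb1 and Ifng among them. Only Ifna13 (2 counts in LOVA A) and Ifna6 (3 counts in PTC B) were counted, so no ligand could be tested; the floor of 3 counts leaves room for up to 0.258 CPM of each. The Ifna genes are near-identical copies, and reads that match several may be lost to counting. Of 6 receptor chains, 4 were higher in NTC than in PTC (66.7%, against 21.5% of all genes), which were Ifnar2 (1.62), Ifngr1 (1.61), Ifngr2 (0.89) and Il10rb (1.69, SE 0.23, adjusted p = 0.00874). The same 4 were called higher in LOVA than in PTC (66.7%, against 19.8% of all genes). Ifnar2 had 35.7 and 57.9 CPM in LOVA, 42.2 and 60.3 in NTC, and 15.5 and 17.9 in PTC. Its partner chain Ifnar1 had 115 and 128 CPM in LOVA, 115 and 130 in NTC, and 129 and 136 in PTC, and was not called. Of the 6 chains 2 had negative fold changes in NTC against PTC. With a block by column letter, or with no filter on low counts, 1 chain was called lower there.

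Of 9 tested kinases and transcription factors, 1 was higher in NTC than in PTC (11.1%, below the 21.5% of all genes), Irf2, a factor that competes with Irf1 for the same sites (1.26, SE 0.40, adjusted p = 0.0499). Its call was lost with DESeq2 size factors in edgeR. Among 18 tested sensors and adaptors, 6 were higher (33.3%) and 3 lower (16.7%) in NTC, against 21.5% and 12.9% of all genes. Ikbke, a kinase that activates Irf3 and Irf7, was highest by fold change at 3.10 (10.8 and 24.3 CPM in LOVA, 17.8 and 25.3 in NTC, 1.88 and 3.07 in PTC). Tlr7 (2.81) and Tlr13 (2.67), endosomal RNA receptors of myeloid cells, came next. Tlr7 had 3.42 and 3.87 CPM in LOVA, 8.52 and 14.4 in NTC, and 1.63 and 1.62 in PTC. Tlr13 had 5.27 and 8.08 CPM in LOVA, 13.5 and 23.8 in NTC, and 3.01 and 2.86 in PTC. All 14 macrophage markers were also called higher in NTC than in PTC, against 21.5% of all genes. The feeder share was higher in NTC as well, and the part of either share in the Tlr7 and Tlr13 levels was not tested. The 3 lower genes, named after their values were seen, were the nucleotide hydrolase Samhd1 (-0.98) and the RNase H2 subunits Rnaseh2a (-0.95) and Rnaseh2b (-0.76), and all 3 turned positive, uncalled, with scaling to pan-germ-cell genes. Of 9 inhibitors 1 was higher (11.1%), the phosphatase Ptpn11 (0.77), and 0 were lower.

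Of a further 43 tested interferon-stimulated genes outside the list, 17 were higher in NTC than in PTC (39.5%, against 21.5% of all genes) and 5 lower (11.6%, against 12.9%), with a median of 1.35. Ifit3b (3.75, SE 0.72), the nuclear body protein Sp100 (3.71, SE 0.78) and Ifi203 of the DNA-binding IFI family (3.38, SE 0.80) were highest. Sp100 had 6.20 and 20.6 CPM in LOVA, 11.6 and 17.9 in NTC, and 0.439 and 1.70 in PTC. The 5 lower genes, named after their values were seen, were the immunity-related GTPases Ifi47 (-1.58) and Igtp (-0.65), the checkpoint ligand Cd274 (-1.39), the peptide-loading protein Tapbp (-1.22) and the proteasome subunit Psmb10 (-1.12). None of the 43 was called lower with scaling to pan-germ-cell genes, where Igtp turned to 0.38. In LOVA against PTC 19 of the 43 were higher, against 19.8% of all genes, and 6 lower, against 10.8% of all genes. No gene of any of these lists was called in LOVA against NTC by edgeR with the filter on low counts, where Tlr7 (-1.65), Tlr13 (-1.49) and Il10rb (-0.54) had an unadjusted p under 0.05. Of the sensors and adaptors, 2 were called lower without that filter and 1 by DESeq2. Without NTC B, none of these lists had a called gene in NTC against PTC, as the whole table had only 1.

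**Figure D5:**
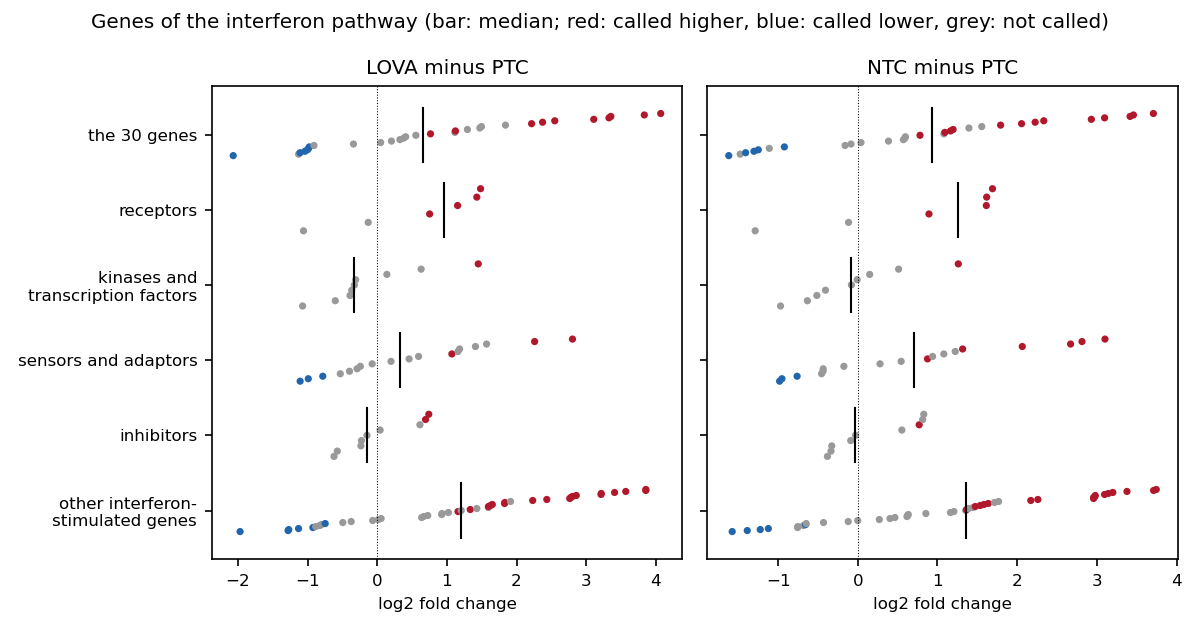
Log2 fold change in LOVA (left) and NTC (right) against PTC for the 30 genes and for the tested genes of 5 other lists of the interferon pathway; points are genes and bars are medians. The 43 other interferon-stimulated genes have a median of 1.21 in LOVA and 1.35 in NTC, with genes on both sides of 0.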

How the data were processed

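Counts per Ensembl gene from 6 RNA libraries were analysed. The deposited table holds whole-number counts, which the authors did not normalize, per the file's values. The submitters' processing notes name Trimmomatic, Bowtie2, RSEM and DESeq2, with neither versions nor roles, and the build mm10. Counts from RSEM would be estimates, rounded before deposit. The libraries were made with a directional kit and sequenced as paired ends, per the labels' protocols. Columns were matched to groups by name; their letters A and B are not tied to the replicate numbers of the labels.

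Symbols and exons came from GENCODE M21. In edgeR 4.0.16, filterByExpr left 16121 genes, libraries were scaled by TMM, and all 6 were fitted with 1 coefficient per group (robust quasi-likelihood fit; common biological coefficient of variation 0.260). Calls needed an adjusted p under 0.05 (Benjamini-Hochberg, over all genes tested). RPKM used the union of a gene's exons. Intervals are 95% intervals from the fit; floors of 3 counts cover counting error only, as PCR copies were not marked. The code was tested on simulated data with known changes. Computations used R 4.3.3, limma 3.58.1 and DESeq2 1.42.0.

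Named in each contrast were Isg15, Irf1, Irf7, Irf9, Stat2 and Psmb8, up to 12 called genes of largest change, and, where none was called, the 8 of lowest p; other genes appear with levels only, or as examples. Other lists gave up to 3 called genes of largest change. A result of the pathway lists is not reported here; counts include it. The genes, lists and tests were chosen with earlier results of these data known. Alternatives were other scalings, no filter, DESeq2, limma-voom, a block by column letter, only 2 groups, genes with no exon overlap, an ISRE mismatch, and each library left out.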

Additional observations from a re-analysis of the deposited data

How the results depend on the processing

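The lowest count of any of the 30 genes in a library was 8, and each group had 2 libraries. Libraries of a group differed far beyond counting noise. No label ties the letters A and B to pairs of libraries across groups. The difference A minus B correlated over genes between LOVA and NTC (0.544), LOVA and PTC (0.387) and NTC and PTC (0.344). What the letters stand for was not tested. With a replicate block by letter, 16 of the 30 genes were higher and 7 lower in NTC against PTC, 14 and 7 in LOVA against PTC, and 0 in LOVA against NTC (median -0.09). The whole table then had 4421 higher and 3632 lower of 16121 genes in NTC against PTC, and 4280 and 3466 in LOVA against PTC. Genes of the list that the block added to the calls were Usp18, Ifih1 and Oasl1 in both comparisons, Stat2 and Rsad2 in NTC, and Isg15 and Psmb8 in LOVA. In no fit was a gene of the list called in LOVA against NTC. DESeq2 size factors, no filter, DESeq2, limma-voom and 2 groups alone kept the counts of calls in both other comparisons within 1.5 times.

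Scaled to pan-germ-cell genes, 0 genes were lower in NTC against PTC (median 1.96) and 0 in LOVA against PTC (median 1.73), and Irf1 (0.10, NTC) and Parp14 (0.0612, LOVA) turned positive. That scaling moved the median of all genes by about as much as it moved these values. The LOVA minus NTC median turned to 0.0291 and Psmb8 to 0.00158; the cause was not tested. Irf7 turned to -0.0638 by limma-voom and -0.0208 with the block.

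Leaving out 1 library each, NTC against PTC had 0 to 14 genes higher, 0 to 6 lower and medians of 0.69 to 1.09. LOVA against PTC had 1 to 12 higher and 0 to 4 lower, with medians of 0.36 to 0.91. LOVA against NTC had medians of -0.56 to 0.36. In LOVA against NTC, the log2 fold change then ran from -1.13 to 0.34 for Isg15, from -0.29 to 0.11 for Irf9, from -0.57 to 0.34 for Psmb8, from -0.32 to 0.12 for Irf1, from -0.62 to 0.49 for Irf7, from -0.0833 to 0.38 for Stat2, from -0.0817 to 0.71 for Parp14 and from -0.0317 to 0.53 for Gbp3; the cause was not tested.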

Other observations

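Of class I antigen display outside the list, B2m and Tapbp were chosen after their values were seen. B2m, the light chain of class I molecules, had 309 and 550 CPM in LOVA, 453 and 599 in NTC, and 46.7 and 76.2 in PTC, and was higher in NTC than in PTC (log2 fold change 3.10, SE 0.37, adjusted p = 0.00859, edgeR). Tapbp, which loads peptides onto class I molecules, had 147 and 97.7 CPM in LOVA, 112 and 118 in NTC, and 234 and 302 in PTC, and was lower in NTC (-1.22, SE 0.24, adjusted p = 0.0150). Feeder shares were 1.39% and 2.27% in NTC and 0.101% and 0.487% in PTC beside both; their part was not tested. Scaled to pan-germ-cell genes, Tapbp stood at -0.18 and was not called.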
